A study of Mus musculus with 6 samples.

Results

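The 10 genes described here encode core proteins of small nucleolar ribonucleoproteins (snoRNPs) and abundant proteins of the nucleolus: Fbl, Nop56 and Nop58, Dkc1, Nhp2, Nop10 and Gar1, and Ncl, Npm1 and Polr1a. They were chosen by name, as the rows of the gene count table that carry these symbols, and are 10 of the 55367 gene names in that table. All 10 passed the filter on low counts and were among the 14916 genes tested. The libraries came from primary keratinocytes, the main cell type of the epidermis, isolated from the skin of day 2 mouse pups, and asked which transcripts change when iASPP is deleted. iASPP, encoded by Ppp1r13l, is an inhibitor of p53 family transcription factors. Every culture had the same genotype, Ppp1r13l flox/flox with Cre+ERT, on a mixed background of C57BL/6 and 129/Sv. In the iASPP KO cultures tamoxifen was added with the medium change 24 h after plating, to switch on the recombinase, and in the iASPP WT cultures the medium was changed without it. The labels give the tamoxifen as 1 mM and the study's methods give the same number in micromolar.

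The WT cultures received no drug, so exposure to tamoxifen and loss of iASPP cannot be told apart here. The recombinase is expressed from the ROSA26 locus, which is active in most cell types, so any other cell type in a culture would also carry the deletion. There were 3 KO and 3 WT libraries, and the labels place 1 of each in each of 3 batches. The libraries were made from total RNA after removal of ribosomal RNA, so the ribosomal RNA that these proteins help to make was not measured.

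snoRNPs chemically modify ribosomal RNA while the ribosome is being built in the nucleolus. In the C/D class, Fbl transfers methyl groups to the ribose of target nucleotides, held on the guide RNA by Nop56 and Nop58. In the H/ACA class, Dkc1 converts uridine to pseudouridine, in a complex with Nhp2, Nop10 and Gar1, and the same proteins are part of telomerase. Most mammalian guide snoRNAs are not transcribed from genes of their own but are cut from introns of protein-coding host genes, and several hosts are themselves genes for nucleolar proteins. Nop56, Nop58, Dkc1 and Ncl are such hosts.

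The count table lists 14 genes inside these 4 hosts on the same strand, of which 13 are snoRNA genes and the other is Mir3535. The 4 with the most counts are C/D snoRNAs, shown here because their levels are compared with those of their hosts further on. They are Snord110 in Nop56 (GRCm38, chr2:130275506-130275573, plus strand), Snord70 in Nop58 (chr1:59691934-59692020, plus strand), Snord11 in Nop58 (chr1:59704790-59704873, plus strand) and Snord82 in Ncl (chr1:86356261-86356330, minus strand). Each sequence is given 5′ to 3′ as DNA from the genome. Capitals mark the C box near the 5′ end, searched as ATGATGN or GTGATGN, and the D box near the 3′ end, searched as CTGA. These boxes are the short motifs on which the C/D proteins assemble.
Snord110: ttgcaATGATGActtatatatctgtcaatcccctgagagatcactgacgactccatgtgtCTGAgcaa
Snord70: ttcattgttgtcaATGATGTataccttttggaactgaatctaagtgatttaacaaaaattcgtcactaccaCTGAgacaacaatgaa
Snord11: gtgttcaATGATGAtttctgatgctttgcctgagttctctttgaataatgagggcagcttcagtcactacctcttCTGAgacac
Snord82: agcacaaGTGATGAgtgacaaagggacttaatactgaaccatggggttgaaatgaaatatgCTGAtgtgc
The 4 lie outside every annotated exon of their hosts, and none of their 42-base windows, the read length, occurs in another annotated gene.

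Libraries held between 20202517 and 25157117 counts. Levels below are CPM, counts scaled to a common library total, after TMM scaling, and 3 counts correspond to between 0.119 and 0.148 CPM. Ppp1r13l checked the labels. It was at 14.3, 17.7 and 5.91 CPM in the KO libraries of batches 1, 2 and 3 and at 32.7, 45.1 and 21.0 CPM in the matching WT libraries, a log2 fold change of -1.45 (SE 0.18, adjusted p = 0.0030, quasi-likelihood test of edgeR, Benjamini-Hochberg adjusted, the test behind every adjusted p that follows unless DESeq2 is named). Batch 3 stood apart in fibroblast markers: 8 of them summed to 475 CPM in its KO and 692 CPM in its WT library, against 38.9 to 53.7 CPM in the other 4 libraries. Batch 2 stood apart in melanocyte markers: 6 of them summed to 395 CPM in its KO and 341 CPM in its WT library, against 854 to 1088 CPM in the other 4 libraries. The part of these differences in the results was not tested, and values without batch 3 are given beside named genes whose call they change. The summed level of 10 keratinocyte markers lay between 27970 and 33996 CPM in all 6 libraries.

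None of the 10 genes passed the adjusted threshold of 0.05 between KO and WT, where 4.12% of all tested genes did, 614 of 14916, 2.17% being higher and 1.95% lower in KO. The 614 became 291 without batch 2, 320 without batch 1 and 1455 without batch 3, and 0 when the batches were left out of the fit. At an unadjusted p under 0.05, 2 of the 10 were counted, against 16.7% of all tested genes. These were Nop10, higher in KO as were 8.66% of tested genes, and Npm1, lower as were 8.09%, and DESeq2 also called 0 of the 10. The estimates were small: the median log2 fold change of the 10 was -0.11, against 0.01 over all tested genes, and their median absolute value was 0.15, against 0.25. The tested genes were not matched to the 10 for abundance, so 0.15 against 0.25 does not show the 10 as unusually stable. The smallest absolute log2 fold change among the 447 called genes in the abundance range of the 10 was 0.46, and none of the 10 reached it. That value shows where calls began with 3 pairs. As none of the 10 was called, it is not separate evidence that their changes were small. Across the 10, the 95% intervals of the fold (KO over WT) ran from 0.665 at the lowest bound to 1.64 at the highest. Of the 10 genes, 4 kept 1 direction through the 3 batches, as did 39.3% of the genes tested. KO and WT levels overlapped for every one of the 10, where 10.7% of all tested genes did not overlap. In bulk RNA, fewer cells of a type and less RNA per cell cannot be told apart.

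**Figure D1:**
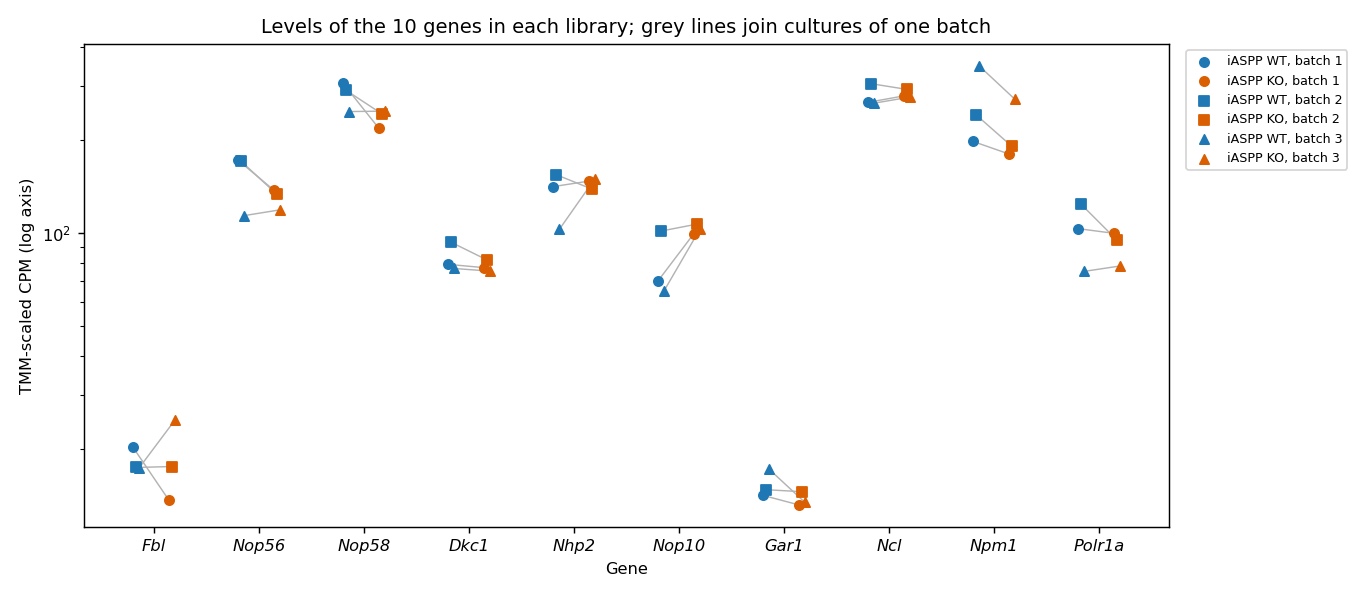
TMM-scaled CPM (log axis) of the 10 genes in each library, WT in blue on the left and KO in orange on the right of each gene, with a symbol per batch and grey lines joining the cultures of a batch. For every gene the KO and WT points overlap in height, and the lines slope both ways for 6 of the 10 genes.

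Among the 3 C/D proteins of the 10, Nop58 had the highest level and Fbl the lowest, and none of the 3 passed the adjusted threshold between KO and WT. Nop58 (chr1:59684971-59719044), a scaffold protein that binds the guide RNA, was at 218.6, 243.1 and 248.0 CPM in the KO libraries and at 305.1, 289.4 and 247.3 CPM in the WT libraries. The KO library was the lower of the pair in batches 1 and 2, while in batch 3 the levels were almost equal. The log2 fold change was -0.24 (SE 0.12, adjusted p = 0.364). Without batch 3 it was -0.37 with adjusted p = 0.0352, the only one of the 10 genes called under any of the 11 alternatives run, and in that comparison 9.53% of all tested genes were called, 4.34% as lower in KO.

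Nop56 (chr2:130274430-130279313), the partner scaffold of Nop58, followed a similar order. Its levels were 137.8, 133.5 and 119.0 CPM in KO and 172.3, 170.6 and 114.0 CPM in WT. KO was again lower in batches 1 and 2 and slightly higher in batch 3, with a log2 fold change of -0.21 (SE 0.12, adjusted p = 0.466). Fbl (chr7:28169710-28179269), the methyltransferase of the particle, was at 13.7, 17.6 and 24.9 CPM in KO and at 20.3, 17.5 and 17.5 CPM in WT. Its direction turned from batch to batch: KO minus WT differences in log2 CPM of -0.56, 0.01 and 0.51 were found in batches 1, 2 and 3. The log2 fold change was -0.01 (SE 0.22, adjusted p = 0.987), with a 95% interval of the fold from 0.706 to 1.40.

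The counts of Fbl and Nop56 are less certain than those of Nop58. Of the 42-base windows of the principal transcript, 75.2% of those of Fbl and 37.9% of those of Nop56 also occur in other annotated genes, most of them pseudogenes, and reads from such windows map to more than 1 place. For Nop58 no window was shared. The annotated exons of Nop56 also overlap 4 small genes on the same strand over 328 of their 4099 bases.

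The H/ACA proteins did not move together. Nop10 (chr2:112261926-112263269), the small protein that holds the synthase in its active shape, was at 99.5, 106.9 and 103.1 CPM in KO and at 70.0, 101.6 and 65.3 CPM in WT. The 3 KO libraries lay within a narrow range, WT in batches 1 and 3 was lower, and WT in batch 2 lay among the KO values. The log2 fold change of 0.41 (SE 0.14) was the largest of the 10 genes in size, with unadjusted p = 0.0126 and adjusted p = 0.147, and the 95% interval of the fold was 1.08 to 1.64. DESeq2 gave Nop10 the lowest adjusted p of the 10, 0.0966.

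Nhp2 (chr11:51619735-51623714), which binds the RNA of the particle, was at 147.3, 138.9 and 150.1 CPM in KO and at 141.4, 154.6 and 102.8 CPM in WT. The WT library of batch 3 was the lowest of the 6, and the KO minus WT differences in log2 CPM were 0.06, -0.15 and 0.55 in batches 1, 2 and 3. The log2 fold change was 0.15 (SE 0.14, adjusted p = 0.684). Dkc1 (chrX:75095854-75109777), the pseudouridine synthase, had the smallest estimate of this class, with levels of 77.4, 82.0 and 75.4 CPM in KO and 79.3, 93.4 and 76.9 CPM in WT. KO was the lower library in every batch, by at most 0.19 in log2 CPM, and the log2 fold change was -0.08 (SE 0.12, adjusted p = 0.793). Gar1 (chr3:129824912-129831396), which helps the substrate RNA to load and leave, was the least abundant of the class, at 13.2, 14.6 and 13.5 CPM in KO and 14.2, 14.8 and 17.2 CPM in WT. It too was lower in KO in every batch, with a log2 fold change of -0.16 (SE 0.19, adjusted p = 0.760). All 4 H/ACA genes shared less than 4% of their windows with other genes.

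Ncl, which with Nop58 and Npm1 was among the 3 most abundant of the 10 in CPM, had a fold near 1. Nucleolin, its product, binds ribosomal RNA precursors and takes part in their transcription and processing. Ncl (chr1:86344719-86359400) was at 277.8, 291.7 and 275.4 CPM in KO and at 264.8, 304.3 and 263.2 CPM in WT. No batch differed by more than 0.07 in log2 CPM, and the log2 fold change was 0.02 (SE 0.11, adjusted p = 0.943) with a 95% interval of the fold from 0.862 to 1.20.

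Npm1 (chr11:33152287-33163206) encodes nucleophosmin, a chaperone of the outer layer of the nucleolus. It was at 180.4, 191.0 and 271.0 CPM in KO and at 198.0, 241.4 and 347.3 CPM in WT. KO was lower in all 3 batches, by 0.13, 0.34 and 0.36 in log2 CPM, while batch 3 was the highest batch in both conditions. The log2 fold change was -0.28 (SE 0.11, unadjusted p = 0.0306, adjusted p = 0.234). Of its windows, 43.0% also occur in other genes, 13 of those 14 genes being pseudogenes. Polr1a (chr6:71909053-71984935), the largest subunit of RNA polymerase I, which transcribes ribosomal RNA, was at 99.9, 95.1 and 78.3 CPM in KO and at 103.5, 124.1 and 75.2 CPM in WT. The largest gap was in batch 2, and the log2 fold change was -0.13 (SE 0.13, adjusted p = 0.703).

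Levels differed between batches as well as between conditions. For 7 of the 10 genes the mean levels of the 3 batches, KO and WT together, spread over a wider range in log2 CPM than the absolute mean of the KO minus WT differences. The share of all tested genes for which this holds was not computed, so the count does not set the 10 apart. Differences of opposite sign also cancel in such a mean, while a range keeps them. In batch 1, 7 genes were lower in KO and in batch 2, 8 genes were, while in batch 3 only 3 were. The median difference in log2 CPM was -0.08, -0.17 and 0.06 in those batches. Per kilobase of the principal annotated transcript, in WT libraries, Nop58 (164 ± 17.4 CPM per kilobase), Npm1 (161 ± 47.0) and Nhp2 (128 ± 25.8) were highest, and their ranges overlapped. Gar1 (12.1 ± 1.27) and Polr1a (10.9 ± 2.66) were lowest and also overlapped (mean ± SD, n = 3). The order depends on the length used: per kilobase of all annotated exons, Nop58 was sixth and Nhp2 first.

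**Figure D2:**
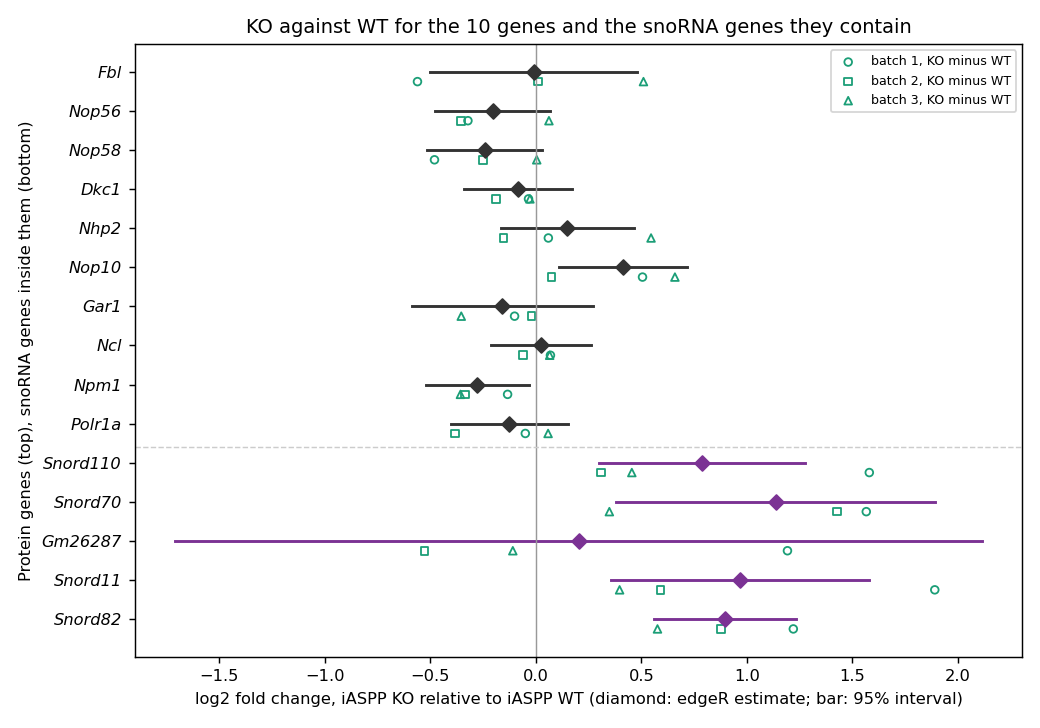
Log2 fold change of KO relative to WT (x axis) for the 10 protein genes (grey, top) and the 5 tested snoRNA genes inside them (purple, bottom), with the 95% interval as a bar and the 3 within-batch differences in log2 CPM as open green symbols. The protein genes lie between -0.28 and 0.41, whereas 4 of the 5 snoRNA genes have all 3 batch symbols to the right of 0.

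The snoRNA genes inside the hosts gave a different picture from the hosts. Of the 14 genes inside them, 5 had enough counts to be tested and 1 passed the adjusted threshold, Snord82, where 4.12% of all tested genes passed. The 8 genes that overlap annotated exons of a host held at most 14 counts in any library, reads falling on 2 genes being left out of such counts by default. Of the 5 tested, 4 were higher in KO in all 3 batches, where 19.5% of all tested genes and 90 of the 140 tested snoRNA genes were. Reads from unspliced host RNA that fall on a snoRNA are counted for the snoRNA.

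Snord82, whose sequence with its boxes is given above, was at 127.4, 37.8 and 39.6 CPM in KO and at 54.6, 20.5 and 26.5 CPM in WT. KO was higher in every batch, although the WT library of batch 1 lay above the KO libraries of batches 2 and 3, so the groups overlapped. The fold was 1.86 (95% interval 1.48 to 2.35, log2 fold change 0.90, SE 0.15, adjusted p = 0.0114), and without batch 1 the adjusted p was 0.0998. Its host Ncl stayed within 0.07 of equality in log2 CPM in each batch.

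Snord110, in Nop56, was at 167.7, 34.9 and 51.4 CPM in KO and at 56.0, 28.2 and 37.5 CPM in WT. The KO library of batch 1 was far above the other 5 libraries. The log2 fold change was 0.79 (SE 0.22, adjusted p = 0.0814), which did not pass. Without batch 1 it was 0.39 (adjusted p = 0.484) and without batch 3 it was 0.97 and was called (adjusted p = 2.0e-09). Snord11, in Nop58, was at 49.8, 9.43 and 27.2 CPM in KO and 13.4, 6.23 and 20.7 CPM in WT, with a log2 fold change of 0.97 (SE 0.27, adjusted p = 0.0866). It was 0.50 without batch 1 (adjusted p = 0.504) and 1.29 without batch 3, where it was called (adjusted p = 8.4e-07). Snord70, in the same host, was less abundant, at 14.9, 4.89 and 5.18 CPM in KO and 4.97, 1.76 and 4.05 CPM in WT. Its log2 fold change was 1.14 (SE 0.34, adjusted p = 0.106), and without batch 3 it was 1.53 and was called (adjusted p = 0.00056). The fifth, Gm26287 in Nop58, lay near 1 CPM and gave 0.20 (SE 0.86, adjusted p = 0.942). DESeq2 called Snord110 (adjusted p = 0.0103) and Snord11 (adjusted p = 0.0210) as well as Snord82.

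Each tested snoRNA was then set against its own host within each batch, as the difference between their KO minus WT differences in log2 CPM. For Snord82 and Ncl it was 1.15, 0.94 and 0.51 in batches 1, 2 and 3, for Snord110 and Nop56 1.90, 0.66 and 0.39, for Snord11 and Nop58 2.37, 0.84 and 0.39, and for Snord70 and Nop58 2.05, 1.68 and 0.34. All 12 of these differences were above 0. These 4 snoRNA genes are the ones already given as higher in KO in all 3 batches, so the signs are not further support. The 12 values come from only 3 batches. In each of these 4 pairs batch 1 was the largest and batch 3 the smallest. A two-sided exact sign-flip permutation test over the 3 batches gave p = 0.25 for each of these 4 pairs. This is the smallest value that 3 batches allow, so this design cannot pass 0.05. The remaining tested gene, Gm26287, went the other way in batches 2 and 3, with 1.67, -0.28 and -0.11 against Nop58 in batches 1, 2 and 3. Snord11, Snord70 and Gm26287 share the host Nop58 and are not independent of each other.

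**Figure D3:**
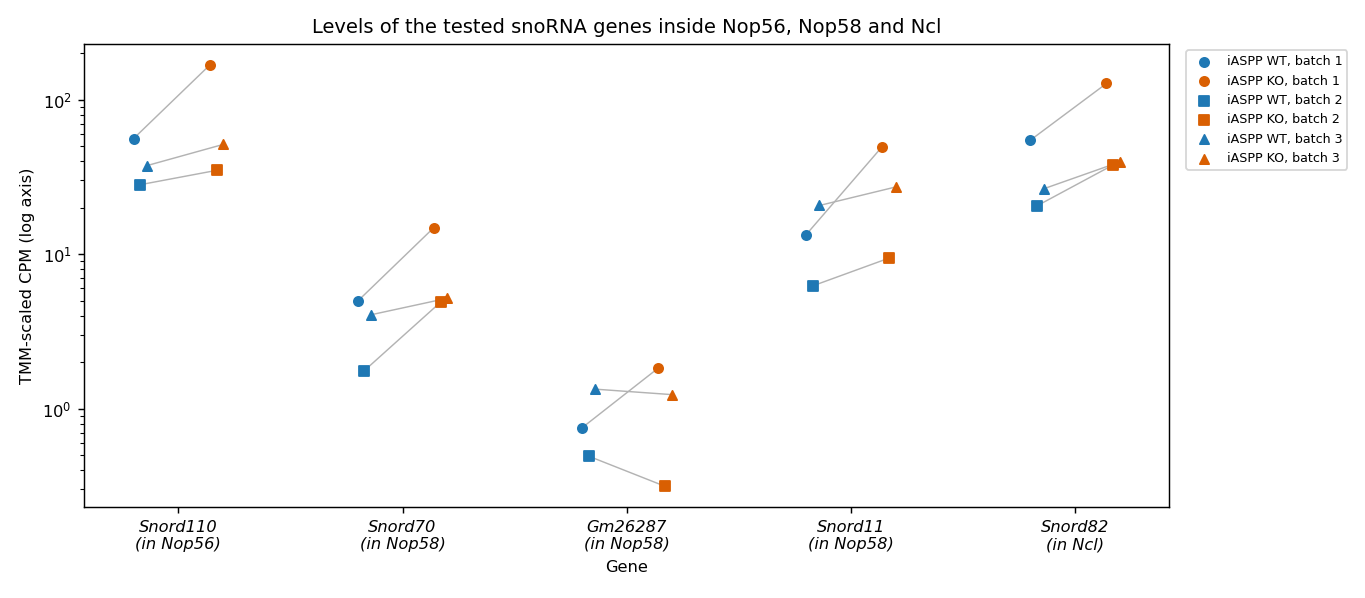
TMM-scaled CPM (log axis) of the 5 tested snoRNA genes in each library, with their host in brackets, WT in blue and KO in orange, a symbol per batch and grey lines joining the cultures of a batch. The lines run upward from WT to KO for Snord110, Snord70, Snord11 and Snord82 in all 3 batches, most steeply in batch 1 and, for Snord70, almost as steeply in batch 2.

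The snoRNA genes inside these hosts were not alone in this. Over all 140 tested snoRNA genes, 40 were called higher in KO, against 2.17% of all tested genes, and 0 lower, 88.6% had a log2 fold change above 0 and their median was 0.90. The 40 became 18 without batch 1, 66 without batch 3 and 70 with no filter on low counts, and 0 when the batches were left out of the fit, with 0 called lower each time. Their summed level was 68701, 42828 and 69353 CPM in KO and 40825, 41166 and 37540 CPM in WT. The KO library of batch 2 lay close to the WT range, the other KO libraries well above it. The study's methods give RNA extraction with the RNeasy Mini Kit and a size selection of the libraries. How much RNA as short as these snoRNAs was kept in each library was not tested.

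Other genes of the same pathway were described by lists. The snoRNP assembly list holds factors that build and move snoRNPs and telomerase. It also holds Snu13, a further C/D core protein, with Tert and Fbll1. Of its 16 genes 15 were tested and 0 were called, with 2 at an unadjusted p under 0.05, against 16.7% of all tested genes. Its median log2 fold change was -0.23, against 0.01 over all tested genes, 13 of the 15 being negative. Snu13 had a log2 fold change of -0.41 (SE 0.28, adjusted p = 0.531). Tcof1, the Treacle protein, a partner of RNA polymerase I, was at 14.9 ± 4.02 CPM in KO and 23.4 ± 2.85 CPM in WT, with a log2 fold change of -0.68 (SE 0.20, adjusted p = 0.0950), and without batch 3 it was the only gene of the list called (adjusted p = 0.0022). Nufip1, a C/D assembly factor, was at 28.6 ± 0.18 CPM in KO and 38.5 ± 4.86 CPM in WT, with a log2 fold change of -0.42 (SE 0.15, adjusted p = 0.171). For both genes every KO library lay below every WT library, as for Znhit6 and Wrap53 of the list. Of all tested genes, 10.7% had KO and WT levels that did not overlap.

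The other subunits and factors of RNA polymerase I (14 genes), the small subunit processome (38 genes) and the factors of large subunit assembly (44 genes) were all tested and none was called by edgeR. At an unadjusted p under 0.05 there were 0, 1 and 0 genes, against 16.7% of all tested genes. Their medians were -0.02, -0.03 and -0.03, close to 0.01 for all tested genes. The gene nearest to the threshold in the processome was Wdr75, a factor also needed for transcription by RNA polymerase I, at 91.8 ± 4.69 CPM in KO and 114.5 ± 0.83 CPM in WT (log2 fold change -0.32, SE 0.11, adjusted p = 0.17). In the other lists the lowest adjusted p belonged to Taf1b (log2 fold change -0.37, adjusted p = 0.429) and Ddx18 (log2 fold change -0.44, adjusted p = 0.404). The 79 cytosolic ribosomal protein genes had 0 called, 6 at an unadjusted p under 0.05, and a median of 0.10, with Rps14 (-0.31, adjusted p = 0.214) and Rpl14 (0.28, adjusted p = 0.219) nearest to the threshold. Without batch 3, Rpl26 was the only one called (0.35, adjusted p = 0.0414).

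Genes of the cell cycle stood in contrast to these lists: 14 of 16 were called lower in KO, as were 1.95% of all tested genes. None of the 16 was called higher, and their median log2 fold change was -1.10. Without batch 2 the count called was 8 and without batch 1 it was 9. The list was chosen with earlier results of these data known, and the study reports sets for cell division and E2F targets as enriched in WT cells. Mcm6, a subunit of the replicative helicase, was at 45.6 ± 17.2 CPM in KO and 105 ± 45.6 CPM in WT (log2 fold change -1.19, SE 0.12, adjusted p = 0.0011). Ccna2, the S and G2 phase cyclin A2, had a log2 fold change of -1.50 (SE 0.16, adjusted p = 0.0012), and Mcm5 one of -1.08 (SE 0.12, adjusted p = 0.0017). Of the 11 genes of the Myc network, whose main member activates genes of ribosome biogenesis, 2 were called, both higher in KO, as were 2.17% of all tested genes. Both encode proteins that compete with Myc for its partner Max. Mxd1 was at 114 ± 65.3 CPM in KO and 48.8 ± 23.5 CPM in WT (log2 fold change 1.15, SE 0.16, adjusted p = 0.0040), and Mxi1 at 85.4 ± 5.62 and 56.9 ± 6.15 CPM (log2 fold change 0.59, SE 0.13, adjusted p = 0.0358, and 0.195 without batch 2). A further Max competitor of the list, Mxd3, had the opposite sign at a low level, 0.627 ± 0.859 CPM in KO and 2.69 ± 2.22 CPM in WT (log2 fold change -2.59, SE 0.77, adjusted p = 0.103), and was called lower by DESeq2 (adjusted p = 0.0312) and with no filter on low counts (adjusted p = 0.0359). Myc itself had a log2 fold change of 0.38 (SE 0.17, adjusted p = 0.299).

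**Figure D4:**
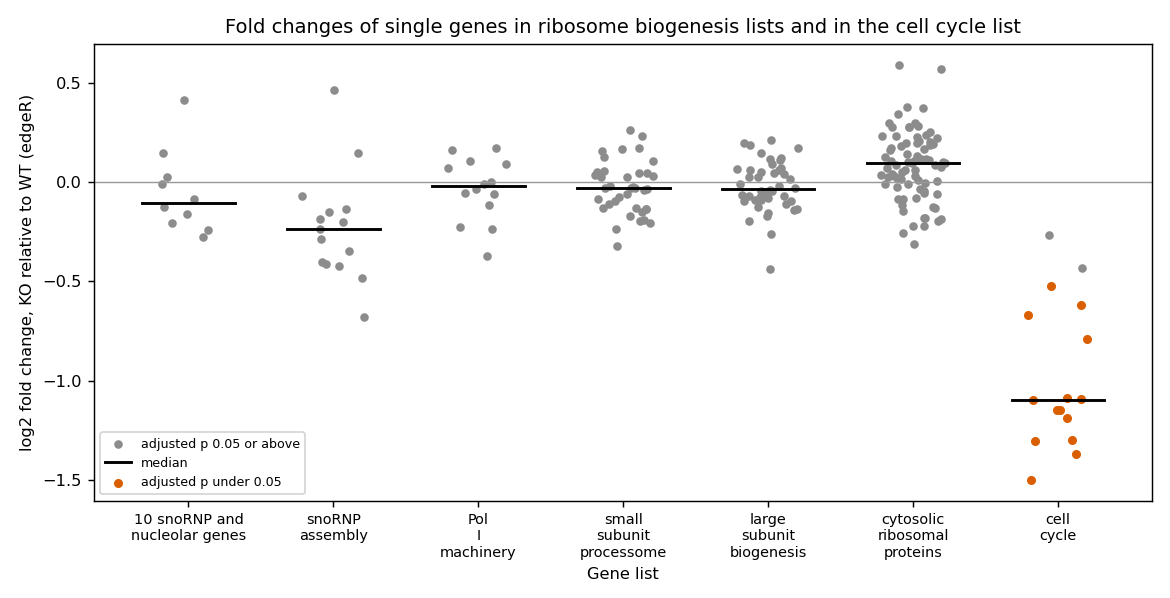
Log2 fold change of KO relative to WT (y axis) for each tested gene of the 10 described genes and 6 gene lists (x axis), 1 point per gene, orange where the adjusted p was under 0.05, with a black line at each median. The medians of the ribosome lists lie between -0.23 and 0.10 with no orange point, and the cell cycle list has 14 orange points and a median of -1.10.

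Markers of other cells the cultures could hold were also counted. Of 8 fibroblast markers 2 were called lower in KO, as were 1.95% of all tested genes. These were Col3a1 (log2 fold change -0.87, adjusted p = 0.0269) and Col1a2 (-0.55, adjusted p = 0.0428). Neither was called without batch 2 or without batch 3, nor Col1a2 without batch 1. Pdgfra, of the same list, had the opposite sign (0.81, adjusted p = 0.258) and was called higher in KO without batch 3 (1.46, adjusted p = 5.8e-07) and with no filter on low counts (adjusted p = 0.0024). Of 9 leukocyte markers 4 were tested and Csf1r was called higher in KO (1.11, adjusted p = 0.0206, and 0.0612 and 0.112 without batches 1 and 2), as were 2.17% of all tested genes. The summed level of the 9 lay between 24.7 and 73.2 CPM in KO and 13.7 and 56.5 CPM in WT, with Cd3e at 0 in all libraries. None of 6 melanocyte markers (341 to 1088 CPM summed), 3 tested endothelial markers of 5 (3.02 to 13.0 CPM summed) and 10 keratinocyte markers was called. Without batch 3, the endothelial marker Kdr was called higher (1.72, adjusted p = 0.0383) and the keratinocyte marker Col17a1 lower (-0.39, adjusted p = 0.0053), and with no filter on low counts Krt15 was called higher (1.10, adjusted p = 0.016). The part of these markers in the levels of the 10 genes was not tested.

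Promoters, taken as the 300 bases around each start from RefSeq (GRCm38.p6), were matched for 8 of the 10 genes, with Fbl and Npm1 unmatched. The E box CACGTG, to which Myc and Max bind, was in 0 of the 8, in 10.3% of the 9933 promoters of tested coding genes and in 7.24% of all 27025 promoters. CCGGAAG was in those of Nhp2 and Gar1 (18.3% of the tested coding genes, 9.12% of all), TCTCGCG in that of Nop58 (5.62% and 2.72%), and GCATGCG in none (6.54% and 3.64%). Both strands were searched, and none of these motifs contains another.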

How the data were processed

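RNA from 6 keratinocyte cultures, 3 iASPP KO and 3 iASPP WT, was depleted of ribosomal RNA and sequenced as 42-base single reads. Per the labels and the study's methods, the authors aligned reads with STAR 2.7.3 to mm10 (GRCm38) with GENCODE annotation and counted reads per gene with featureCounts 2.0.0; the deposited values are raw counts per gene. Whether counting used strand is not given in the sources used here. A deposited table of the authors' own comparison (fold changes and p-values) was not used.

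Counts were tested in edgeR 4.0.16 (R 4.3.3): genes kept by filterByExpr, TMM scaling, and a quasi-likelihood model of batch and condition, with Benjamini-Hochberg adjustment over 14916 genes and a threshold of 0.05. The script was tested on simulated counts. Within-batch differences used log2 CPM with a prior count of 2. Intervals are 95% intervals of the fitted log2 fold change. DESeq2 1.42.0 was an alternative. The batch labels pair the cultures: deviations from the condition mean correlated at 0.603, 0.707 and 0.771 within batches and from -0.671 to 0.311 between them (8775 genes). Nothing states that cultures came from separate animals, so p-values measure the spread between these cultures. No 2 libraries of a condition agreed within sampling noise.

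The 10 genes and the gene lists were chosen with earlier results of these data known. Named genes are the 10, all genes inside them on their strand, Ppp1r13l, Myc, and in each list the 3 lowest-p genes past the threshold or, with none past it, the 2 with the lowest p, and the 5 genes most correlated with the mean standardised level of the 10, of which 1 is not reported here. snoRNA positions and sequences come from GRCm38 with GENCODE vM21; shared windows compare each principal transcript with all other annotated transcripts on both strands. Motif boxes were searched in the first 25 bases (C) and last 18 bases (D).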

Additional observations from a re-analysis of the deposited data

How the results depend on the processing

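Cultures of a batch are paired, and without the replicate block 0 genes were called (691 at an unadjusted p under 0.05), including 0 of the 10 genes, 0 snoRNA genes inside them, 0 Myc network genes and 0 cell cycle genes, while Ppp1r13l had a log2 fold change of -1.38 (adjusted p = 0.973) and Fbl turned to 0.026. With no filter on low counts, 1115 genes were called, among them 4 snoRNA genes inside the hosts and 1 snoRNP assembly gene, Tcof1. DESeq2 called 872 genes and 3 of those snoRNA genes. With library totals alone 295 genes were called higher and 455 lower, against 323 and 291 with TMM, the median of all genes was -0.07, Ncl turned to -0.051 and 1 Myc network gene, Mxd1, was called.

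With 1 batch left out at a time, the number of genes called ran from 291 (without batch 2) to 1455 (without batch 3), and was 320 without batch 1. Of the 10 genes 0 to 1 were called, Nop58 without batch 3 at -0.37, in a range from -0.37 to -0.12. Signs turned for Fbl (-0.28 to 0.27), Nhp2 (-0.048 to 0.31, lowest without batch 3), Polr1a (-0.22 to 0.0075, highest without batch 2) and, among the snoRNA genes, Gm26287 (-0.36 to 0.58). The called snoRNA genes inside the hosts ran from 0 (without batch 1) to 4 (without batch 3), snoRNP assembly genes from 0 to 1 (Tcof1), ribosomal protein genes from 0 to 1 (Rpl26), Myc network genes from 1 to 2 and cell cycle genes from 8 (without batch 2) to 14, with 9 without batch 1. The cause of these changes was not tested.

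The alternatives for the snoRNA genes were chosen after seeing the data. Only 3 pairs were available, levels are relative to all counted RNA, and reads shared with pseudogenes limit Fbl, Npm1 and Nop56.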

Other observations

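Among the 5 genes whose level followed most closely the mean standardised level of the 10 genes over the 6 libraries, of 10137 tested genes with at least 5 CPM on average, were Dxo (Pearson r = 0.988), E430018J23Rik (0.982), Akap10 (0.974) and Tmem11 (0.962). These values describe 6 libraries that share 3 batches. The mean standardised level was highest in the WT library of batch 2 (0.85) and lowest in the WT library of batch 3 (-0.45) and the KO library of batch 1 (-0.42). Among the 45 pairs of the 10 genes, the highest correlation over the 6 libraries was between Nop56 and Polr1a (r = 0.915) and the lowest between Nhp2 and Gar1 (r = -0.867).

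Mir3535, which lies in Ncl and overlaps its exons, was too low to be tested, at 0.355 ± 0.237 CPM in KO and 0.0410 ± 0.0710 CPM in WT (mean ± SD, n = 3).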
